A study of Mus musculus with 44 samples.

Results

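The replication-dependent histone genes were followed in single two-cell mouse embryos. Members were all genes of the deposited table whose name begins with Hist1h, Hist2h, Hist3h or Hist4h, leaving out pseudogenes, which gave 67 of 35269 genes. They comprised 6 genes of histone H1, 18 of H2A, 18 of H2B, 12 of H3 and 13 of H4. Of these, 54 lie in the Hist1 cluster on chromosome 13, 10 in the Hist2 cluster on chromosome 3, 2 in Hist3 on chromosome 11 and 1, Hist4h4, on chromosome 6 (GRCm38).

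The 44 embryos came from natural matings on a C57Bl/6 background, and each was sequenced as its own library. Dppa2 and Dppa4, a pair of adjacent genes whose proteins bind chromatin together, had been deleted in growing oocytes of the knockout mothers with Zp3-Cre, a recombinase expressed only there, so the embryos of these mothers received no maternal supply of either transcript while the other maternal tissues kept both genes. The control females were Dppa2/4+/+, as given in the study, and carry only the name of controls in the labels. Every cross was made with matings numbered 1 and 2, and the embryos of 1 mating are called a litter here. There were 14 Dppa2/4+/+ embryos (control females and wild-type males, 10 and 4 from 2 litters), 15 Dppa2/4+/- embryos from knockout females and wild-type males (7 and 8), 5 Dppa2/4+/- embryos from knockout females and Dppa2/4+/- males (4 and 1) and 10 Dppa2/4-/- embryos that were littermates of the last 5 (3 and 7). Among these last 15 embryos the authors told the genotypes apart by the presence of Dppa2 and Dppa4 transcripts, so that the loss of both is no check of the Dppa2/4-/- label. Dppa2 had 184 to 2144 reads in Dppa2/4+/+ embryos, 11 to 489 and 19 to 814 in the Dppa2/4+/- embryos of wild-type and of Dppa2/4+/- sires, and 0 to 7 in Dppa2/4-/- embryos. Apart from these littermates, every litter held embryos of 1 group only, and litter and group cannot be told apart. Total reads per embryo ranged from 247667 to 3163026, with group medians from 528166 in Dppa2/4+/- embryos of wild-type sires to 1770010 in Dppa2/4+/+ embryos. Whether a low value reflects fewer transcripts of a gene or less RNA recovered from an embryo cannot be told apart in these libraries.

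Histones H2A, H2B, H3 and H4 form the core of the nucleosome, and H1 binds the DNA between nucleosomes. The replication-dependent genes supply the bulk of these proteins during S phase, when new DNA is packaged. Their transcripts have no introns in most cases and end in a short stem-loop in place of a poly(A) tail; SLBP, the stem-loop binding protein, accompanies them from processing to decay. Replacement variants such as H3.3 and H2A.Z are made from ordinary polyadenylated mRNA throughout the cell cycle. In the present experiment mRNA was captured on oligo-dT, which pairs with poly(A), so the values describe the polyadenylated or A-rich part of the histone transcripts and not their total amount.

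The stem-loop is shown for the 6 of the 7 repeatedly detected genes (defined below) in whose annotated transcript it was found. It was searched in the exonic sequence after the stop codon, in the sense of the transcript, as a run of 16 bases that begins with GG and ends with CC, holds T at positions 6 and 9 and A at position 11 counted from its 5′ end, and can form all 6 pairs of the stem (G with T included). The capitals mark the stem and the lower case the loop of 4 bases.
Hist1h4i, chr13:22040966-22040981, reverse strand: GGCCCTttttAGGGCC
Hist1h4c, chr13:23698089-23698104, reverse strand: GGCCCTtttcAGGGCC
Hist4h4, chr6:136803998-136804013, reverse strand: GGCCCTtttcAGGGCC
Hist1h1c, chr13:23739512-23739527, forward strand: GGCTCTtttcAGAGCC
Hist2h3c1, chr3:96247327-96247342, forward strand: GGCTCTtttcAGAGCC
Hist3h2ba, chr11:58949349-58949364, forward strand: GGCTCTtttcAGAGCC
These are bases of the GRCm38 transcripts of GENCODE. Over all members, 45 of 67 held such a run after the stop codon, 25 of them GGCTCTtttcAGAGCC and 7 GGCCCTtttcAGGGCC. The annotated transcripts did not end there: in 23 members over 100 bases followed the stem-loop, among them all 6 shown, with 330 bases in Hist1h4i, 840 in Hist1h1c and 2445 in Hist4h4. In Hist1h2bc no run was found in the annotated transcript, which has 2 exons joined over chr13:23684199-23692908.

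Few histone transcripts were recovered. Of the 67 members, 36 had at least 1 read in any of the 44 embryos, 31 had none, and 10 of the 36 were seen in a single embryo. A count of 0 allows up to 3 reads, which is 0.948 RPM (reads per 1000000 reads of the embryo) in the deepest embryo and 12.1 RPM in the shallowest, so low levels of the 31 cannot be told from 0. All members together had 1396 reads, and their summed level was 0 to 294 RPM per embryo with a median of 12.2. At least 3 reads in at least 5 embryos were found for 7 members, namely Hist1h4i, Hist1h2bc, Hist1h1c, Hist2h3c1, Hist3h2ba, Hist4h4 and Hist1h4c, and these held 86.7% of the member reads. H3f3b, which encodes the replacement variant H3.3, stood at 452 to 2636 RPM (median 767) and exceeded the sum of all 67 members in 44 of 44 embryos.

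Levels between genes were compared per kilobase of exon. Hist1h4i had the highest mean of the members, 10.5 RPM per kb, ahead of Hist1h2bc with 5.17, Hist1h1c with 2.70 and Hist3h2ba with 1.69. Over the 41 embryos other than 3 Dppa2/4+/+ embryos described below, Hist1h4i stood at 10.1, Hist3h2ba at 1.798, Hist1h2bc at 1.16 and Hist1h1c at 0.265 RPM per kb, and leaving out embryo 11 of the 3 alone brought Hist1h2bc to 2.16 and Hist1h1c to 1.12. On the same scale H3f3b reached 319 RPM per kb and H2afz, the gene of H2A.Z, 284. By class, the 4 of 6 H1 genes with a read had 312 reads in all, the 4 of 18 H2A genes 44, the 12 of 18 H2B genes 492, the 7 of 12 H3 genes 109 and the 9 of 13 H4 genes 439. In the other 41 embryos the order was different, with 383 reads of H4, 165 of H2B, 64 of H3, 41 of H1 and 34 of H2A genes. In the summed level the groups overlapped, with 1.38 to 294 RPM (median 8.03) in Dppa2/4+/+ embryos, 0 to 68.2 (median 18.5) and 6.37 to 43.0 (median 15.4) in Dppa2/4+/- embryos of wild-type and of Dppa2/4+/- sires, and 2.03 to 33.1 (median 12.3) in Dppa2/4-/- embryos.

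**Figure D1:**
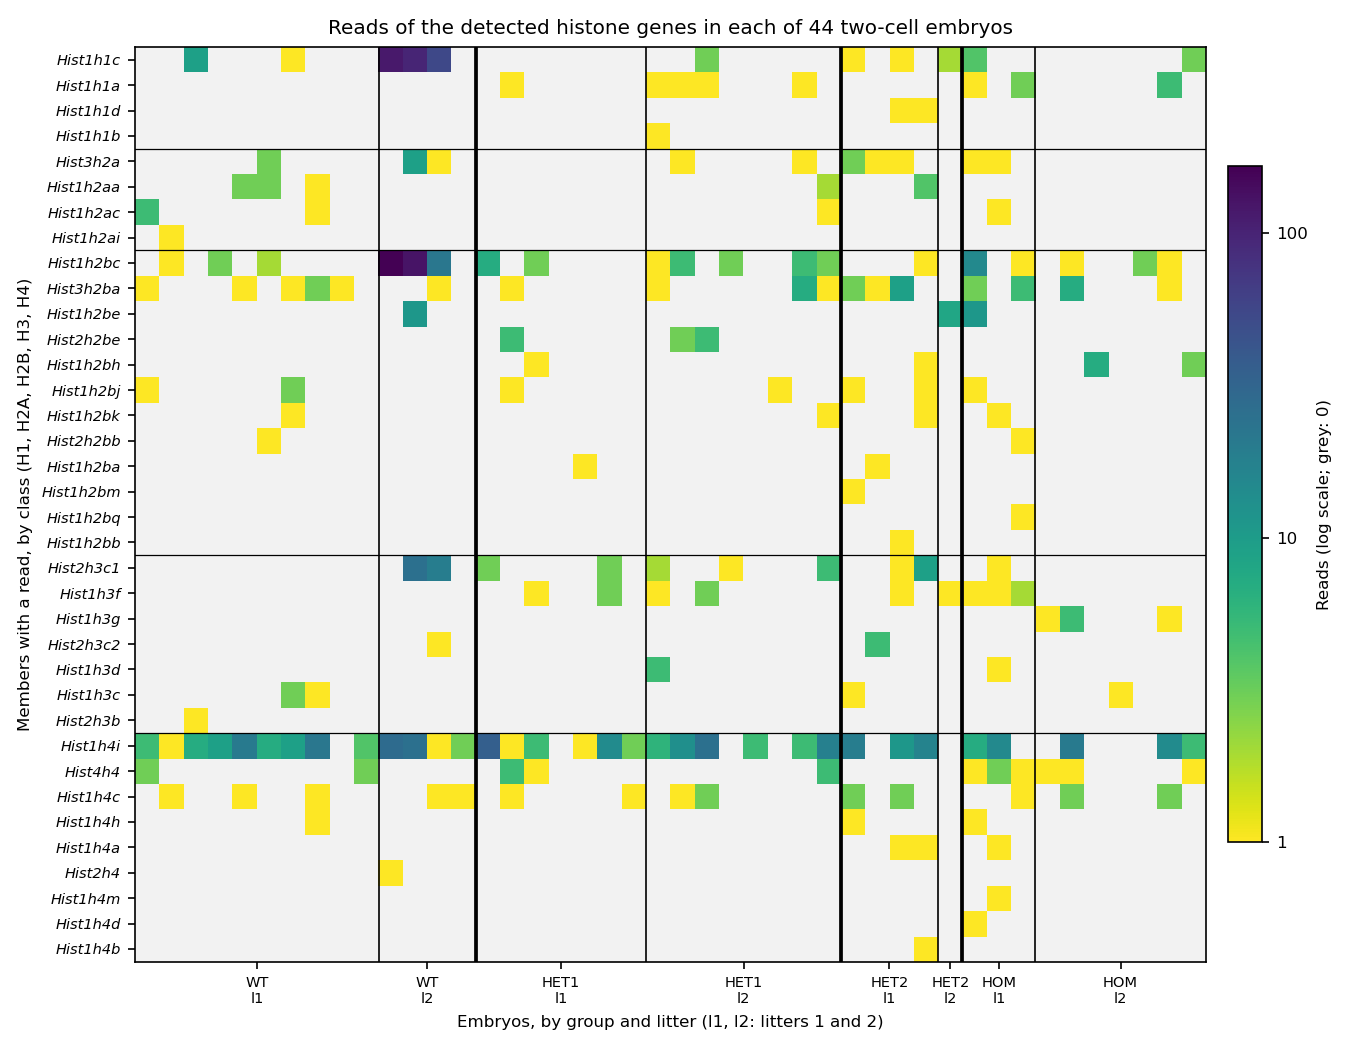
Reads of the 36 members with a read (rows, by histone class) in each embryo (columns, by group and litter; WT, Dppa2/4+/+; HET1 and HET2, Dppa2/4+/- from wild-type and Dppa2/4+/- sires; HOM, Dppa2/4-/-; l1 and l2, litters 1 and 2). Colour gives reads on a log scale and grey is 0. Most of the field is empty, Hist1h4i is filled in 33 of 44 embryos, and the darkest cells are Hist1h2bc and Hist1h1c in 3 Dppa2/4+/+ embryos of litter 2.

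Members with and without reads had unlike annotated 3′ ends and shared their sequence with other genes to unlike degrees. The annotated transcripts of the 31 members without a read ran on for a median of 80.0 bases after the stop codon, those of the 36 members with a read for 294.5, and those of the 7 repeatedly detected members for 742. The 31 members with over 100 such bases held 95.6% of all member reads. Histone genes of a class are close copies, and reads that map equally well to several places fail a MAPQ filter. The median share of windows of 75 bases (the read length) that also occur in the transcript of another gene elsewhere was 65.5% for members without a read, 22.2% for members with a read and 16.9% for the repeatedly detected 7. Over the 67 members, which share paralogous sequence, Spearman's rho between reads and shared windows was -0.504, between reads and bases after the stop codon 0.429, and between the 2 features -0.37. As the features themselves vary together, the part of each in the number of reads was not tested.

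**Figure D2:**
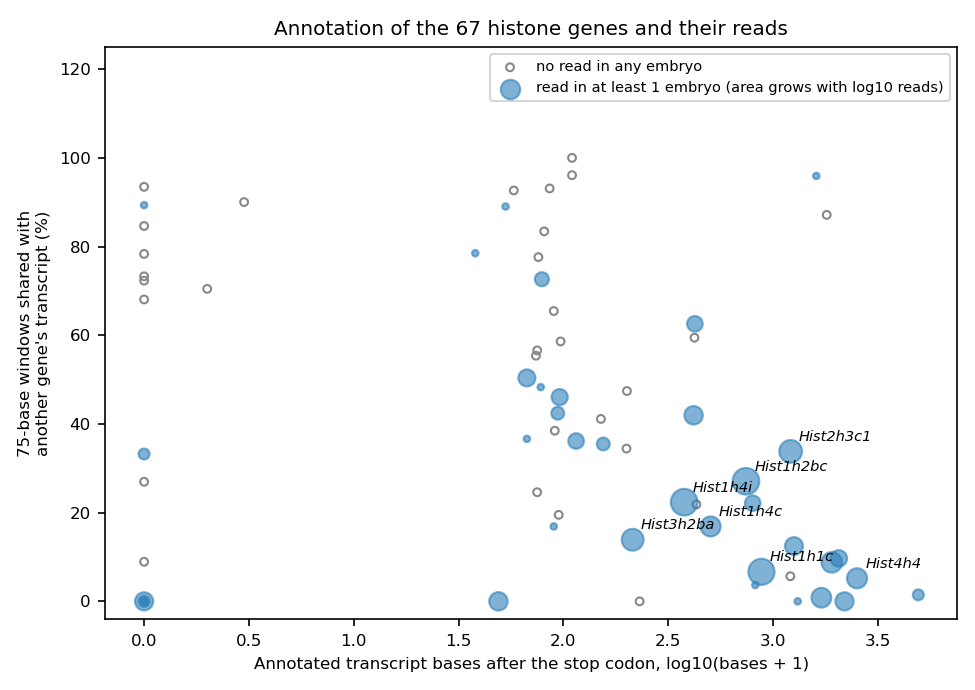
Each of the 67 members by its annotated bases after the stop codon (log10 of bases + 1) and the percent of its 75-base windows shared with the transcript of another gene. Open circles had no read, filled circles had reads with an area that grows with log10 of the reads, and the 7 named members had at least 3 reads in at least 5 embryos. All 7 lie at the lower right, with 213 to 2515 bases after the stop codon and at most 33.8% of windows shared.

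The sources of reads can be uncertain for some members. In all, 24 of 67, among them all 18 H2A genes, overlap another annotated gene between their start and end, introns included. Reads were counted without strand, so where exons overlap the partners of such a pair cannot be told apart. Overlap of exons was not computed. Of the repeatedly detected members only Hist2h3c1 had such an overlap, with the predicted gene Gm20634 on the same strand. Promoters (250 bases before to 50 after the start, RefSeq, GRCm38.p6) were matched for 61 members. On either strand, CCAAT was present in 52 of them (85.2%), against 37.4% of 32851 mouse promoters, and TATAAA in 35 (57.4%), against 13.6%.

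H4 and H2B genes each had reads in 35 of 44 embryos, H3 genes in 24, H1 genes in 18 and H2A genes in 16. Hist1h4i, an H4 gene at chr13:22040636-22041362 on the reverse strand with a single exon, had reads in 33 of 44 embryos and 380 reads in all. Its level was 0 to 26.3 RPM (median 3.85) in Dppa2/4+/+ embryos, 0 to 34.1 (median 7.36) in Dppa2/4+/- embryos of wild-type sires and 0 to 19.1 (median 1.44) in Dppa2/4-/- embryos. The 5 Dppa2/4+/- embryos of Dppa2/4+/- sires stood at 0, 0, 8.89, 15.4 and 15.7 RPM. The 4 groups overlapped over nearly their whole range, and each held at least 1 embryo without a read.

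Between litters Hist1h4i also overlapped. In Dppa2/4+/+ embryos it ranged from 0 to 13.7 RPM in litter 1 and stood at 0.457, 3.54, 8.37 and 26.3 RPM in litter 2. In Dppa2/4+/- embryos of wild-type sires the medians were 3.53 RPM (7 embryos) and 11.6 RPM (8 embryos), and in Dppa2/4-/- embryos 2.87 RPM (3) and 0 RPM (7). The other H4 genes among the leading members were lower. Hist4h4 had reads in 11 embryos (25 in all, at most 5 per embryo), 6 of them Dppa2/4-/- and none of the 5 Dppa2/4+/- embryos of Dppa2/4+/- sires. Hist1h4c had reads in 14 embryos (24 in all, at most 3 per embryo) from all 4 groups. The remaining H4 genes with reads had 3 or fewer in all 44 embryos.

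Hist1h2bc, which encodes an H2B, and Hist1h1c, which encodes the linker histone H1.2, stood apart in 3 of the 4 Dppa2/4+/+ embryos of litter 2. Hist1h2bc reached 156, 42.5 and 10.1 RPM (166, 127 and 22 reads) in embryos 11, 12 and 13, and had no read in embryo 14. In the 10 embryos of litter 1 it was between 0 and 2.06 RPM, with reads in 3 of them. Elsewhere it had reads in 7 of 15 Dppa2/4+/- embryos of wild-type sires (at most 9.59 RPM), in 1 of 5 of Dppa2/4+/- sires (0.907) and in 5 of 10 Dppa2/4-/- embryos (at most 6.15). The 3 embryos thus lay above all other 41.

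Hist1h1c (chr13:23738808-23740367) followed the same 3 embryos, with 111, 32.8 and 25.1 RPM (118, 98 and 55 reads) in embryos 11, 12 and 13 and no read in embryo 14. In litter 1 it had 9 reads (4.66 RPM) in embryo 3, 1 read in embryo 7 and none in the other 8. In the remaining groups it was at most 1.64 RPM in Dppa2/4+/- embryos of wild-type sires, 1.43 in those of Dppa2/4+/- sires and 5.48 in Dppa2/4-/- embryos. Together both genes had 586 reads in the 3 embryos, and the 3 embryos held 709 of the 1396 member reads. Without them, 35 members still had a read in at least 1 embryo, but only 5 had at least 3 reads in at least 5 embryos, since Hist1h1c and Hist2h3c1 fell below that number.

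The difference between the litters was tested with limma on log2 RPM over all genes above a common floor of 3.63 RPM (1.86 on the log2 scale, the value of a gene without reads in the shallowest embryo) in at least 5 of 44 embryos, with Benjamini-Hochberg adjustment over the 13338 genes kept. Only 4 members passed this filter, Hist1h4i (23 embryos above the floor), Hist1h2bc (10), Hist1h1c (5) and Hist2h3c1 (5). Hist1h1c and Hist2h3c1 passed it only because of embryos 11 to 13, so that their tests between these litters are not independent of the filter. Between the Dppa2/4+/+ litters, 167 genes (1.25%) were called higher in litter 2, and 2 members were among them. Hist1h2bc was higher by 2.61 ± 0.41 (SE; adjusted p = 4.75e-05) on the log2 scale with the floor, which understates changes of low genes. For Hist1h1c the difference was 2.69 ± 0.34, given as a description because of the filter. Leaving out single embryos of litter 2, with the same 13338 genes, kept the call of Hist1h2bc, with differences of 1.67 to 3.48; those of Hist1h1c were 1.95 to 3.60. Without embryos 11, 12 and 13, which were chosen for their high values, litter 2 is embryo 14 alone, with no read of either gene, and no member was called. Over all genes the count of calls in either direction was 234 (1.75%), and 49 without embryo 11. Embryos of a litter share a mother, and with 1 litter on each side the p-values measure the spread between embryos, not between litters.

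Between the litters of Dppa2/4+/- embryos of wild-type sires Hist1h1c differed by 0.00 ± 0.30, and between those of Dppa2/4-/- embryos by 0.08 ± 0.39. For Hist1h2bc these differences were 0.39 ± 0.36 and -0.25 ± 0.48.

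Several genes known from oviduct epithelium and connective tissue were high in the same 3 embryos, from which the zona pellucida had been removed as from all others. Ovgp1, the oviduct-specific glycoprotein of the secretory epithelium, was at 1498, 211 and 147 RPM in embryos 11, 12 and 13, at 48.4 RPM in embryo 14, at no more than 61.4 RPM in litter 1 and at no more than 8.16 RPM in the other groups. Dcn, which encodes the matrix proteoglycan decorin of connective tissue, was at 457, 79.0 and 61.3 RPM in the 3 embryos and at 35.4 RPM in embryo 14, with reads in no other embryo. Dynlrb2, a dynein subunit gene of ciliated cells, was at 72.2, 17.7 and 1.83 RPM and had no read in any of the other 41 embryos. The other listed genes of ciliated epithelium did not set the 3 embryos apart. Foxj1, Tppp3 and Ccdc153 were there at most at 0.938, 6.57 and 13.4 RPM, and reached 2.26, 7.48 and 20.0 RPM in other embryos. Over 18 genes of oviduct epithelium, stroma and smooth muscle, chosen after Ovgp1 had been seen to be high, the summed level was 2174, 496 and 383 RPM in the 3 embryos and at most 146 and 157 RPM in the other Dppa2/4+/+ embryos and the other groups. Ovgp1 was the larger part of this in embryo 11 but not in embryos 12 and 13, and the other 17 genes summed to 675, 286 and 235 RPM, against at most 97.9 and 157 RPM. Of the 18, 5 lay above every other embryo in all 3. All 18 had a read in at least 1 of the 3 embryos, some of them very few, such as Krt7 with 1 read in embryo 11 alone. Dcn and Esr1, the estrogen receptor gene, together made up most of the sum of the other 17 genes in each of the 3. Esr1 was found in 39 of the other 41 embryos as well, at up to 145 RPM. In embryo 13, where it was at 138 RPM, Esr1 alone was the larger part of that sum.

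Of the 3, embryo 11 was highest and embryo 13 lowest for Hist1h2bc, Hist1h1c and 7 of the 18 oviduct genes, Ovgp1, Dcn and Dynlrb2 among them; Esr1 (54.4, 120.5 and 138 RPM) and Col3a1 (17.8, 20.8 and 13.7 RPM) ran otherwise. Where these transcripts came from, and their part in the level of both histone genes, was not tested. Embryo 10 of litter 1 had 61.4 RPM of Ovgp1, no read of Dcn and no read of either histone gene. Of the other marker lists, 6 genes of sperm and spermatids had no read in the 3 embryos, while the blood genes Hba-a1 and Ptprc had none and Hbb-bs had 1. A set of 10 cumulus and granulosa genes summed to 23.4 to 59.1 RPM there, against 11.7 to 79.1 RPM in the other Dppa2/4+/+ embryos, with Has2, Fshr, Foxl2, Inhba and Lhcgr at 0. All 10 two-cell markers, such as Zscan4c, and all 8 oocyte markers, such as Gdf9, had reads in at least 1 of the 3 embryos. The two-cell markers summed to 331 to 631 RPM there, against 283 to 907 RPM in the other Dppa2/4+/+ embryos. The oocyte markers summed to 2163 to 9193 RPM, against 1607 to 5277 RPM in the other Dppa2/4+/+ embryos and 1447 to 13994 RPM in the other groups. Embryo 11 had reads in 9169 genes, the fewest of all 44.

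**Figure D3:**
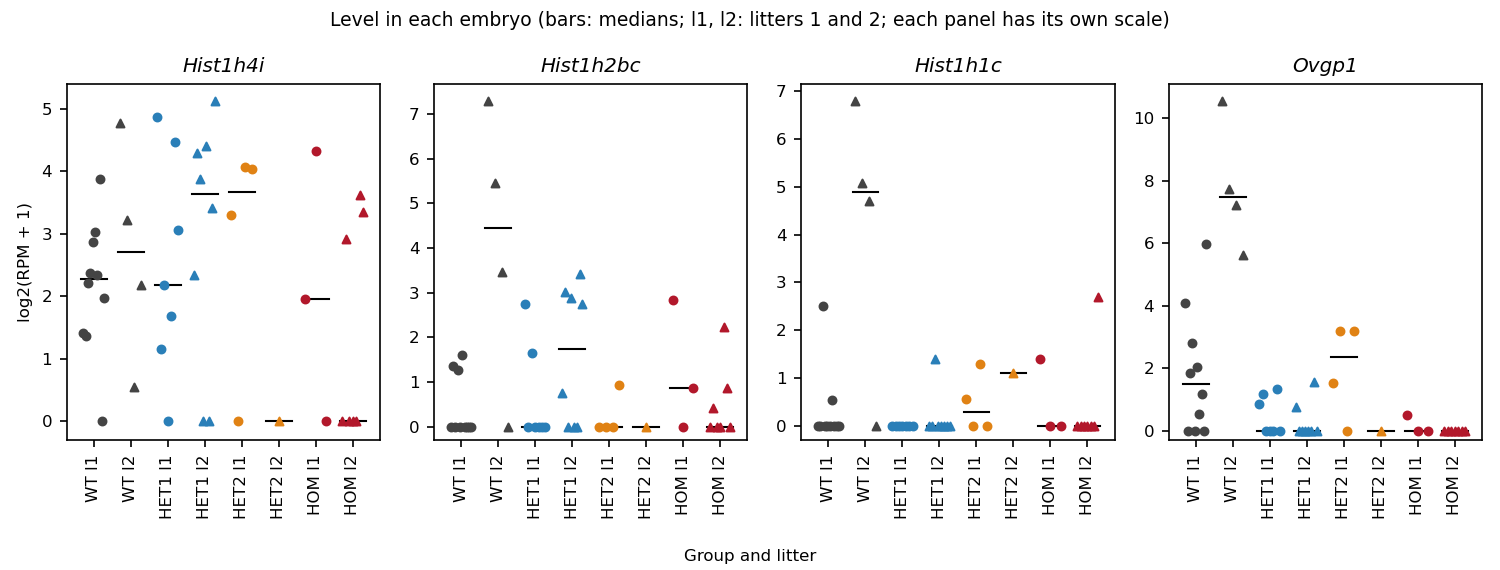
Level of Hist1h4i, Hist1h2bc, Hist1h1c and Ovgp1 in each of 44 embryos as log2(RPM + 1), by group and litter (l1, circles; l2, triangles), with bars at the medians and a scale of its own for each panel. Hist1h4i is spread over all groups, while Hist1h2bc, Hist1h1c and Ovgp1 are highest in the same 3 Dppa2/4+/+ embryos of litter 2.

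By mean RPM, Hist3h2ba and Hist1h2bh followed Hist1h2bc among the H2B genes. Hist3h2ba had reads in 17 embryos (47 in all), 6 Dppa2/4+/+, 4 Dppa2/4+/- of wild-type sires, 3 Dppa2/4+/- of Dppa2/4+/- sires and 4 Dppa2/4-/-, and its highest values were 13.4 and 12.9 RPM in single Dppa2/4+/- embryos of either kind. It was at 0.457 RPM in Dppa2/4+/+ embryo 13 and had no read in embryos 11 and 12, where Hist1h2bc was highest. Hist1h2bh had 12 reads in 4 embryos, none of them Dppa2/4+/+. Hist1h2be, named here because it had more reads, had 30 in 3 embryos.

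Of 109 H3 reads, 69 came from Hist2h3c1 in 10 embryos, 44 of them from Dppa2/4+/+ embryos 12 and 13. It was at 8.37 and 8.69 RPM in Dppa2/4+/+ embryos 12 and 13 of litter 2 and had no read in the other 12 Dppa2/4+/+ embryos. Single embryos reached 9.47 RPM among the Dppa2/4+/- embryos of wild-type sires and 8.16 RPM among those of Dppa2/4+/- sires, and the highest of the Dppa2/4-/- embryos was at 1.27 RPM. Hist1h3f had 14 reads in 9 embryos, none of them Dppa2/4+/+, and Hist2h3c2 had 6 reads in 2. Between the Dppa2/4+/+ litters the difference of Hist2h3c1 was 0.62 ± 0.22, a description for the same reason as that of Hist1h1c.

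Linker and H2A genes were sparse. Of the H1 genes other than Hist1h1c, Hist1h1a had 14 reads in 8 embryos, with none in Dppa2/4+/+ embryos, and Hist1h1d had 2 reads in 2. Only 4 of the 18 H2A genes had any read, 44 reads in all: Hist3h2a had 22 in 10 embryos, Hist1h2aa, which encodes the germ cell variant TH2A, had 13 in 5, and Hist1h2ac had 8 in 4. Apart from Hist1h1c, none of these genes passed the filter given above, and no difference between groups is read from these counts.

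The number of members detected per embryo was highest in 1 litter, less clearly so at equal total reads. In the mating of knockout females with Dppa2/4+/- males, a median of 10 members (range 4 to 12, 7 embryos) had a read in litter 1 and 2.5 (1 to 6, 8 embryos) in litter 2. Within litter 1, the 4 Dppa2/4+/- embryos had a median of 9.5 members and their 3 Dppa2/4-/- littermates 10. In the other matings the litter medians were 4 and 5 for Dppa2/4+/+ embryos and 3 and 5.5 for Dppa2/4+/- embryos of wild-type sires. Depth differed as well, with medians of 1108889 and 747523 total reads in those 2 litters. After every embryo had been thinned to 247667 total reads, the medians were 4 (1 to 6) and 2 (0 to 4), those of the Dppa2/4+/+ litters were 1 (0 to 2) and 3.5 (2 to 5), and those of the Dppa2/4+/- litters of wild-type sires 2 (0 to 5) and 3.5 (1 to 5).

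**Figure D4:**
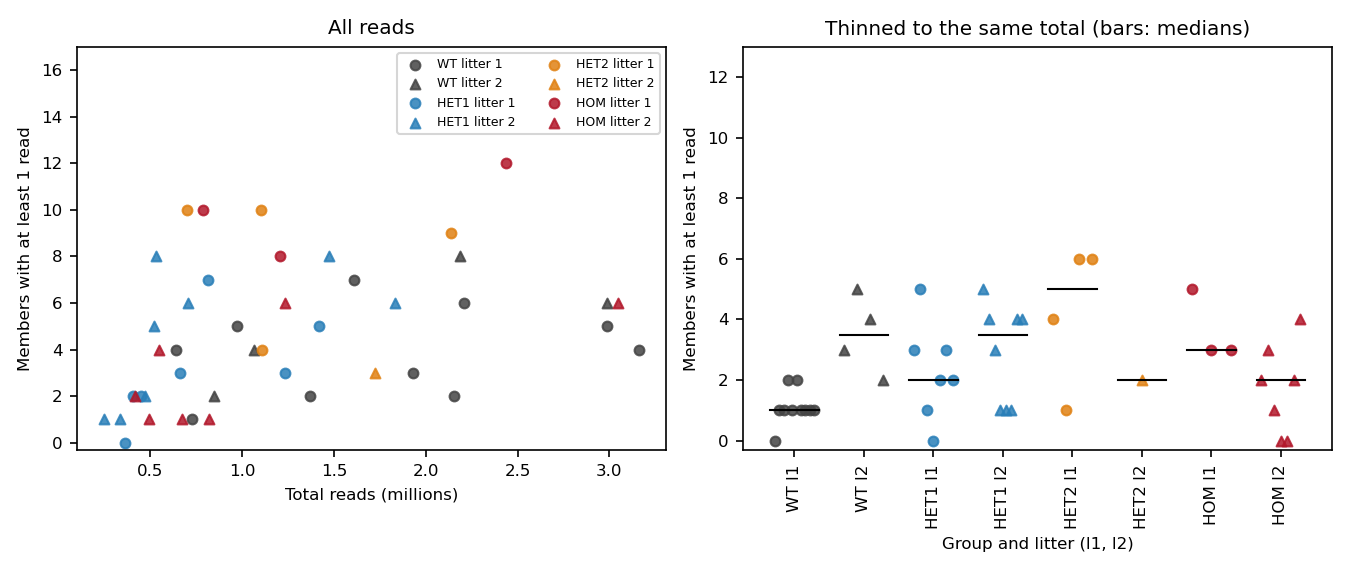
Left, members with at least 1 read against total reads (in units of 1000000) in each embryo; right, members with at least 1 read after thinning to the same total, by group and litter (l1, circles; l2, triangles; bars are medians). The 5 embryos with 9 to 12 members on the left are all from litter 1 of Dppa2/4+/- sires, and Dppa2/4+/+ embryos of litter 1 lie lowest on the right, with 0 to 2.

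None of the 4 tested members was called between genotypes. Against Dppa2/4+/+ embryos, no member was called in Dppa2/4-/- embryos (0.045% of all 13338 genes called), in Dppa2/4+/- embryos of wild-type sires (6.51%) or in those of Dppa2/4+/- sires (0.0375%), nor within litters between Dppa2/4-/- embryos and their littermates (0.015%). With limma voom on the recovered reads the count was also 0 in all 4 comparisons, beside 9, 997, 8 and 3 of 13338 genes. At an unadjusted p under 0.05 the counts were 1, 1, 0 and 0 of 4 members, beside 16.5%, 21.9%, 9.01% and 4.81% of all genes, and the member in both cases was Hist1h1c, which passed the filter only because of 3 Dppa2/4+/+ embryos. Between the litters of Dppa2/4+/- embryos of wild-type sires (21.9% of all genes called) and of Dppa2/4-/- embryos (2.32%) no member was called with limma or with voom, and none had an unadjusted p under 0.05, beside 34.2% and 18.3% of all genes.

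Hist1h4i differed from Dppa2/4+/+ embryos by 0.04 ± 0.42 (SE, log2) in Dppa2/4-/- embryos, by 0.62 ± 0.38 in Dppa2/4+/- embryos of wild-type sires and by 0.52 ± 0.53 in those of Dppa2/4+/- sires, with adjusted p-values of 0.972, 0.340 and 0.818 in limma. Between Dppa2/4-/- embryos and their littermates it differed by -0.20 ± 0.56 (adjusted p = 0.948). For Hist1h1c the differences from Dppa2/4+/+ embryos, in the same order, were -0.74, -0.80 and -0.80; they are given as a description, since this gene entered the test through the high embryos of the group compared. Without Dppa2/4+/+ embryos 11, 12 and 13 they were 0.027, -0.033 and -0.033. For Hist1h2bc the values were -0.67, -0.45 and -0.75 (adjusted p = 0.363, 0.462 and 0.662), and 0.077, 0.30 and 0.00 without the 3 embryos. With no filter on low values 14 members were tested, and none was called in these 4 comparisons. Over all genes 3, 692, 3 and 2 of 18651 were called there, in the order given above.

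Most factors that make, process and degrade histone mRNA had enough reads to be tested, in contrast to the histone genes. Their levels were uneven, and Zfp473 (3.09 RPM) and Mblac1 (0.208 RPM) averaged less than Hist1h4i (7.65 RPM). Of 23 listed genes 21 were in the table and 20 could be tested. Casp8ap2, the FLASH protein gene of the histone locus body, averaged 688 RPM over all embryos, Slbp 290 and Npat, the coactivator of histone gene transcription, 230. No gene of this list was called in any of the 4 genotype comparisons, and its median difference between Dppa2/4-/- and Dppa2/4+/+ embryos was 0.26, beside 0.17 over all genes. Between the Dppa2/4+/+ litters Ncbp1, a subunit of the cap-binding complex, was called lower by 1.14 ± 0.30 in litter 2 (a value of -1.14, adjusted p = 0.0354). It was 1 of 20 genes, beside 0.502% of all genes called lower. Its level there was 31.0 to 193 RPM, against 168 to 363 RPM in litter 1. The call was lost without embryo 11 (adjusted p = 0.652) and in further settings. Over all alternatives the difference ranged from -1.44 to -0.56. Between the litters of Dppa2/4+/- embryos of wild-type sires, 2 genes of the list were called higher and 4 lower in litter 2, beside 6.46% and 15.4% of all genes. Slbp was higher there by 1.06 ± 0.26 (adjusted p = 0.00304), with 205 to 1019 RPM in litter 2 and 101 to 315 RPM in litter 1. The decapping factor Lsm1 was higher by 1.41, and the histone mRNA exonuclease Eri1, the cyclin gene Ccne1, Ncbp1 and Ncbp2 had differences of -1.42, -1.02, -0.90 and -0.86. With embryos re-centred on their medians Slbp and Lsm1 were still called and these 4 were not (adjusted p from 0.0557 to 0.202). Lsm1 was not called with voom (adjusted p = 0.0594), and Eri1 was called in 2 of 7 other settings.

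Histone chaperones and importers were all 21 tested. Their highest mean levels were 684 RPM for Atrx, 430 for Nap1l1 and 248 for Rbbp7. In Dppa2/4+/- embryos of wild-type sires 4 of 21 were called lower and none higher than in Dppa2/4+/+ embryos, beside 2.83% and 3.67% of all genes: the histone acetyltransferase gene Hat1 by -1.14 ± 0.33, the FACT subunit gene Supt16 by -0.94 ± 0.23, the nucleosome assembly gene Nap1l1 by -0.88 ± 0.20 and Nasp, an H3-H4 chaperone gene, by -0.59 ± 0.18, with adjusted p-values from 0.00557 to 0.0324 in limma. The list had a median difference of 0.03, beside 0.10 over all genes. With litter as a random effect no gene of the list was called, and the count was also 0 without litter 2 of these embryos or without Dppa2/4+/+ litter 1, and 8 without litter 1 of these embryos. Over all alternatives Nap1l1 stayed between -1.06 and -0.73 and Supt16 between -1.12 and -0.60, while Hat1 ranged from -1.53 to -0.18 and Nasp from -0.89 to -0.25. Between the litters of these embryos, Asf1a (1.66) and Rbbp7 (1.19) were called higher in litter 2 (2 of 21, beside 6.46% of all genes), and Hira, Ipo4, Rbbp4 and Nasp were called lower (4 of 21, beside 15.4%), with differences of -1.95, -1.41, -0.79 and -0.64. Of the last 4, Hira was still called after re-centring on the medians and in all 7 other settings. The call of Ipo4 was lost in 5 of the 7, and those of Rbbp4 and Nasp in 2 each. No gene of the list was called in the other 5 comparisons.

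Of 12 genes of replacement and linker variants, 10 could be tested. H3f3b averaged 949 RPM, H2afz 505 and Cenpa, the centromeric H3 gene, 210. Between Dppa2/4-/- and Dppa2/4+/+ embryos none of the 10 was called, and their median difference was 0.72, beside 0.17 over all genes. H1foo, the linker histone of the oocyte, was called higher in Dppa2/4+/- embryos of wild-type sires than in Dppa2/4+/+ embryos, by 2.52 ± 0.52 (adjusted p = 0.00214), with 7.28 to 205 RPM (median 52.5) against 0 to 21.95 RPM (median 7.29). Within those embryos it was also higher in litter 2 than in litter 1, by 2.12 ± 0.61 (adjusted p = 0.00989), with 27.9 to 205 RPM against 7.28 to 58.9 RPM. H3f3b was higher in the same litter by 1.53 ± 0.20 (adjusted p = 4.50e-07), with 1021 to 2636 RPM against 452 to 785 RPM and no overlap, and H1f0 by 1.49 ± 0.47 (adjusted p = 0.0180; 0.0824 with voom). Beside these 3 of 10 genes, 6.46% of all genes were called higher between those litters. With litter as a random effect the H1foo difference between the groups was 2.46 and not called (adjusted p = 0.320), nor was it called without litter 2 of these embryos (1.40, adjusted p = 0.203) or without Dppa2/4+/+ litter 1 (2.36, adjusted p = 0.146). No other gene of this list was called in the 7 comparisons. Re-centring every embryo on its median moved the median over all genes by 0.18 between the litters of Dppa2/4+/- embryos of wild-type sires and by -0.15 between Dppa2/4-/- and Dppa2/4+/+ embryos. It turned the share of higher among all calls from 29.5% to 50.1% in the first of these. In Dppa2/4+/- embryos of wild-type sires against Dppa2/4+/+ embryos that share went from 56.5% to 40.3%. The directions given for the named genes held.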

How the data were processed

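Single two-cell embryos were sequenced as 75 bp paired-end libraries after oligo-dT capture (Smart-seq2). The authors trimmed reads (Trim Galore 0.6.5, cutadapt 2.3, per the submitters' processing notes), mapped them to GRCm38 with HISAT2 2.1.0, dropped alignments with a MAPQ below 20 and counted reads of either strand over 35269 probes made from mRNA in SeqMonk. The deposited values are log2 RPM per gene, in which a gene without reads holds the value of 0.9 read. Reads were recovered from that step (99.9997% of values within 0.05 of a whole number). Of recovered values from 1 to 9, 80.4% were odd, so a unit may not be 1 independent fragment; how the pipeline rounded is not given in the sources used here. The limit that a count of 0 allows covers counting error only, while standard errors are over embryos.

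Groups and litters were taken from the labels. The paper names no test for differential expression. Values below a common floor were raised to it, and genes above it in at least 5 embryos entered limma (version 3.58.1, R 4.3.3; lmFit, then eBayes with trend) with all 44 embryos in a model of 4 groups or of 8 group-by-litter cells, or with the 15 embryos from Dppa2/4+/- sires and litter as a term, and with Benjamini-Hochberg adjustment at 0.05. Scores over members were given no test. Nothing says that embryos of a litter vary like independent litters.

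Named were the members called, the 3 members of each histone class with the highest mean RPM, and of each other list the genes called (up to 10) and the 3 highest. Members and lists were chosen with earlier results of these data known; the oviduct genes, the tests that leave out Dppa2/4+/+ embryos of litter 2 and the differences of litter differences were added after values had been seen. Alternatives covered the floor, the log scale, filters, scaling, voom, thinning, litter terms and left-out litters or embryos. Sequence features came from GENCODE M21 transcripts of GRCm38 and promoters from RefSeq (GRCm38.p6); protein sequences were not used here. Nothing in the sources says that equal mating numbers share parents or a day. Figures were drawn with matplotlib 3.10.9.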

Additional observations from a re-analysis of the deposited data

Results flagged for a closer look

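The litter difference of Dppa2/4+/+ embryos, litter 2 minus litter 1 on the log2 scale, differed from that of Dppa2/4+/- embryos of wild-type sires by 2.22 for Hist1h2bc and 2.69 for Hist1h1c, and from that of Dppa2/4-/- embryos by 2.86 and 2.60. These limma contrasts were chosen after the high values of 3 embryos had been seen, and Hist1h1c passed the filter only because of them, so the values are a description and no p-value is given. Litters of Dppa2/4+/- embryos of Dppa2/4+/- sires were not compared.

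Among 39 combinations of a measure with a group or litter of 4 to 10 embryos, 10 had an embryo set apart from the rest by a gap above Dixon's 95% critical value; chance gives about 1 in 20, and for genes with many zeros a single embryo with reads is enough. Of the 4 Dppa2/4+/- embryos of litter 1 from Dppa2/4+/- sires, embryo 2 had 4 members with a read and the next 9. Hist1h4i was at 13.7 RPM in Dppa2/4+/+ embryo 8 of litter 1, and the next was at 7.19. Hist1h2bc was at 0.907 RPM in Dppa2/4+/- embryo 4 of Dppa2/4+/- sires and at 0 in the others, both over the group and in litter 1. It was at 5.66 RPM in Dppa2/4+/- embryo 1 of litter 1 from wild-type sires (next 2.12) and at 3.65 RPM in Dppa2/4-/- embryo 8 of litter 2 (next 0.810). Hist1h1c was at 5.48 RPM in Dppa2/4-/- embryo 10, set apart over the group (next 1.64) and in litter 2 (next 0). It was at 1.64 RPM in Dppa2/4+/- embryo 10 of litter 2 from wild-type sires (next 0) and at 4.66 RPM in Dppa2/4+/+ embryo 3 of litter 1 (next 0.453).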

How the results depend on the processing

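Between the Dppa2/4+/+ litters Hist1h2bc kept its direction and its call under the 7 other settings chosen at the outset (floor, log scale, filters, scaling, voom, thinning), with differences of 2.21 to 5.09; those of Hist1h1c, which passed the filter only because of embryos 11 to 13, were 2.46 to 5.35. The count of members called, with Hist1h1c among them, was 2, and 2 to 3 (Hist2h3c1 added without embryo 14) when single embryos of litter 2 were left out and 0 without embryos 11, 12 and 13, which leaves litter 2 with 1 embryo, assumed to vary like the others. In each of the 3 comparisons with Dppa2/4+/+ embryos the count of members called was 0. It was 0 to 1 when litters or embryos were left out, 1 being Hist1h2bc without Dppa2/4+/+ litter 1. The differences were -2.53 in Dppa2/4-/- embryos, and -2.31 and -2.61 in Dppa2/4+/- embryos of wild-type and of Dppa2/4+/- sires. That setting leaves embryos 11 to 14 as the Dppa2/4+/+ group, 3 of them those with high Hist1h2bc. Of 12878 genes, 123, 133 and 28 were called there, in the same order, with 3 members tested. With the mating number as a replicate block the counts were 0, 1 and 0, the 1 being Hist1h1c in Dppa2/4+/- embryos of wild-type sires (-1.01), which passed the filter only because of 3 Dppa2/4+/+ embryos; no source pairs the numbers, and the litters' deviations correlated by 0.402, -0.378 and -0.701 between groups, and the block changed no other member call. With that block 12, 745 and 6 of 13338 genes were called in these comparisons. Within litters no member was called in any alternative. Differences without a call changed sign as follows. For Hist1h4i these were -0.68 with log2(RPM + 1), -0.66 with voom and -0.39 without Dppa2/4+/+ litter 1 (-0.39 to 0.22 over left-out litters) for Dppa2/4-/- embryos; -0.017, -0.37, -0.34 (thinned) and -0.58 (without their litter 1; -0.58 to 0.79 over left-out litters) for Dppa2/4+/- embryos of Dppa2/4+/- sires; and 0.54 (thinned) between littermates. For Hist1h1c these were -0.24 and -0.24 between littermates with log2(RPM + 1) and voom, and 0.027 in Dppa2/4-/- embryos and -0.036 between Dppa2/4+/+ litters without the 3 embryos. For Hist1h2bc these were 0.57 (no floor), 0.62 (voom), 0.30 and 0.30 (without Dppa2/4+/+ litter 2 or the 3 embryos) in Dppa2/4+/- embryos of wild-type sires, and 0.077 and 0.077 (the same) in Dppa2/4-/- embryos. The cause was not tested. Over all genes, calls ranged over the alternatives from 2 to 130 (6 as reported) for Dppa2/4-/-, 0 to 2609 (868) and 0 to 59 (5) for Dppa2/4+/- embryos of the 2 kinds of sire against Dppa2/4+/+, 2 to 4 (2) between littermates, and 49 to 674 (234), 2082 to 3205 (2920) and 122 to 430 (309) between litters; litter as a random effect gave the lowest counts against Dppa2/4+/+. After thinning, 25 of 67 members had a read, beside 36. Levels under 3 reads, 0.948 to 12.1 RPM by embryo, could not be told from 0.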
